A study of Rattus norvegicus with 20 samples.

Results

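The promoters of organic ion, bile and ABC transporters were taken from a map of NF-kB p65 binding in regenerating rat liver. A gene was taken if its name in any of the 20 peak lists belonged to the families Slc10a, Slc22a, Slco or Abca to Abcg. This gave 78 of the 14368 named genes, whose starts lay in 80 of the 14540 tiled promoters. Abcg5 and Abcg8 share 1 promoter, and Abcc4, Slc10a7 and Slco1a1 have a pair of starts each. By family there were 7 genes of Slc10a, 16 of Slc22a, 14 of Slco, 8 of Abca, 9 of Abcb, 10 of Abcc, 2 of Abcd, 4 of Abce and Abcf together and 8 of Abcg. A gene could enter only with at least 1 peak, so a transporter with no peak on any array is not described here.

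These proteins move bile acids, drugs, hormones and lipids across membranes. In a hepatocyte, Slc10a1 and members of the Slco and Slc22a families take up bile acids and organic ions from portal blood, while Abcb11, Abcb4, Abcc2, Abcg2 and the Abcg5-Abcg8 pair export bile acids, phospholipid, conjugates and sterols into bile. In inflamed liver many of these genes are known to be turned down, and p65, the subunit of NF-kB that carries its main activation domain, is among the factors studied for this. The Abce and Abcf proteins share the ATP-binding fold but have no membrane part and act in translation.

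The animals were wild-type male Sprague Dawley rats, labelled as 8 to 10 weeks old and 275 to 300 g. For 5 weeks ethanol supplied 36% of the calories of 1 set of rats, pair-fed controls received carbohydrate in its place, and 70% of the liver was then removed. The lobes removed in that operation (left lateral and median) gave the 0h samples, and the remaining right and caudate lobes gave the 1h and 6h samples, so time and lobe cannot be told apart in comparisons with 0h. In each diet, 0h and 1h were measured on 3 arrays and 6h on 4, called biological replicates in the labels. The chromatin came from liver tissue as a whole, so a change in the makeup of cells and a change in binding per cell cannot be told apart, and ChIP DNA offers no expression marker with which to check the tissue.

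The values given below are read as log2 ratios of p65-precipitated to reference DNA. For each promoter they are the mean over the 500 bp window with the highest average over all 20 arrays, after each array was centred on its median. The deposited ratios were multiplied by −1, since the authors' peaks were negative in them: after turning, all 564 transporter peaks that held probes had a mean above 0 on their own array. The sources do not state the direction of the deposited ratio unambiguously, so it was inferred here from the peaks. Over all probes no pair of arrays correlated below −0.107. A promoter was called where limma's adjusted p over 14540 promoters was under 0.05.

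Array identifiers, not the sample labels, gave the run, the slide and a number taken here for the animal, so these are inferred. By them the arrays came from 4 runs and 11 slides. All 3 carbohydrate arrays at 0h and 2 of the 3 ethanol arrays at 0h formed the first run, and 11 of the 14 later arrays formed the third. Ethanol 0h replicate 2 lay on the slide of the second run, together with carbohydrate 1h replicate 1 and ethanol 1h replicate 1, the last of which carries the same animal number. Over the 80 transporter promoters this 0h array correlated at 0.884 with ethanol 1h replicate 1 and at 0.133 and −0.12 with the other ethanol 0h arrays. Comparisons with 0h are therefore given with and without it, and 6h is compared with 1h first, because both times are present in the third run. Since the labels themselves name no animals, the p-values rest on the spread among arrays, part of which may be technical.

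The sequences of 5 promoters, 3 with higher signal at 1h than at 6h in the ethanol diet and 2 with the opposite order in the carbohydrate diet, are shown because these opposite courses recur through the results. Each is 300 bases around the RefSeq start in GRCr8, most of them upstream. Capitals mark matches to a loose kappa B pattern, GGGNNNNNCC on either strand, with overlapping matches run together. Abca2 lies at chr3:28642534-28642833 on the plus strand, Slco2b1 at chr1:163408016-163408315 on the minus strand, Abcb4 at chr4:26164096-26164395 on the minus strand, Slco1a5 at chr4:176963763-176964062 on the minus strand and Slc10a2 at chr16:91087839-91088138 on the plus strand.
Abca2: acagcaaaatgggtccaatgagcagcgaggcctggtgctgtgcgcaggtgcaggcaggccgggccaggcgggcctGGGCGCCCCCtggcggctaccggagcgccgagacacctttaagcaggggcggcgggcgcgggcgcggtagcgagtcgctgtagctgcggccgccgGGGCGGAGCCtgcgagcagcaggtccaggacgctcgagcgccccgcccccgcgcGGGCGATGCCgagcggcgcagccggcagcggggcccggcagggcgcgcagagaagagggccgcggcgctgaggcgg
Slco2b1: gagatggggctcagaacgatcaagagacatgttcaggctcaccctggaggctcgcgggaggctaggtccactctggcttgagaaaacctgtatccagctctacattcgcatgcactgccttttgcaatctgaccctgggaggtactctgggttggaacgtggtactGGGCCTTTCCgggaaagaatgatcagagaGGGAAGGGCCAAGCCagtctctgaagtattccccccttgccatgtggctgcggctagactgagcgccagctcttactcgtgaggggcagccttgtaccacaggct
Abcb4: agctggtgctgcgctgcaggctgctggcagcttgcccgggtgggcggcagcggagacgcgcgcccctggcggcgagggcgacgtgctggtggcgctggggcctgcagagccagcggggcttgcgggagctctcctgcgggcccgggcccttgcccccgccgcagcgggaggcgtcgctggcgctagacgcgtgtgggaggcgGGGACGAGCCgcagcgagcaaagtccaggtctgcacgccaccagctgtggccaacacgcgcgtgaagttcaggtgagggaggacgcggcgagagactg
Slco1a5: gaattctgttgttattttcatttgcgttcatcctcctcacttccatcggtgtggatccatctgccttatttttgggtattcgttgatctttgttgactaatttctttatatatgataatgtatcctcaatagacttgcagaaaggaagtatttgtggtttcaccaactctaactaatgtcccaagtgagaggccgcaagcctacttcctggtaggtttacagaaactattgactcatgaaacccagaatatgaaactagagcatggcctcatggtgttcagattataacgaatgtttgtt
Slc10a2: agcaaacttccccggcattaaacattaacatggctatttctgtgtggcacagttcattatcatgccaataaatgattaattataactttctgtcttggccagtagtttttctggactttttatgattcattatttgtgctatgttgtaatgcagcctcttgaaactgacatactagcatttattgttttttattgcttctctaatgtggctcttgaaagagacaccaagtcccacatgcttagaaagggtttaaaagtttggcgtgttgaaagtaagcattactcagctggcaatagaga

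The first 3 hold 3, 3 and 1 matches and the last 2 hold none, but these 5 were picked by their values and other members were mixed. Of other rises from 1h to 6h in carbohydrate, Slco4c1 held 2 and Abca5, Abcc10 and Slco6c1 held 0. Abcc4, which rose at its first start, held 1. Of other falls there, Abcg4 held 1 and Slc22a12 held 0. These are part of the 14 rises and 6 falls there that had a sequence, and the rest are not listed. In the 500 bp windows used for the values, the middle lay 864, 568 and 881 bp downstream of the start listed in the files at Abca2, Slco2b1 and Abcb4, and at −86 and −58 bp at Slco1a5 and Slc10a2. The files, whose build is not given, list these starts at 3595422 on chromosome 3, 157028887 on chromosome 1, 21946273 and 179851288 on chromosome 4 and 89939294 on chromosome 16, in that order. Sequences were found for 64 of the 78 genes. The loose pattern occurred in 37 of them (57.8%), against 47.3% of all 33469 rat promoters of the same length, and the stricter GGGANNTTCC occurred in 1 (1.56%) against 1.3%. These promoters were also richer in G and C than the rest, with a median of 57.8% against 51.7%. A match of letters is a description of the sequence and no binding site, and matches were not placed against the windows.

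The median transporter had a peak on 5 arrays, and the median of all named genes was 6. On single arrays from 9 to 38 of the 78 genes had a peak, the lowest on ethanol 6h replicate 2 (11.5%, against 20.3% of all genes) and the highest on ethanol 1h replicate 2 (48.7%, against 44.4%). Abcb11, the bile salt export pump, and Slco1a5, an organic anion carrier, had peaks on 14 of 20 arrays. Slc10a7, an orphan of the bile acid carrier family, Slc22a17, a lipocalin receptor, and Abca5, a lipid transporter of lysosomes, had them on 13 each. At the other end, 7 genes had a peak on 1 array only, among them Slco1b2 and Abcc3. The best peak of Abcb11 had a score of 0.919 and an FDR of 0.00052, both given by the authors' peak caller.

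With a gene taken as bound where at least 2 arrays of a group had a peak, 16 of 78 transporters were bound at 0h in each diet. In the carbohydrate diet 24 were bound at 1h and 29 at 6h, and in the ethanol diet 32 at 1h and 22 at 6h. The shares followed those of all named genes: 20.5% against 20.6% at carbohydrate 0h, 30.8% against 28.8% at 1h and 37.2% against 39.6% at 6h, and in ethanol 20.5% against 19.7%, 41% against 41.6% and 28.2% against 30.2%. Among Slc22a genes, 0 of 16 were bound at carbohydrate 0h, 8 at 1h and 5 at 6h. Of the 7 Slc10a genes 6 were bound at carbohydrate 6h and 5 at ethanol 6h. All these numbers depend on the peaks that also chose the genes, and on how many peaks each array had, so they carry no test.

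**Figure D1:**
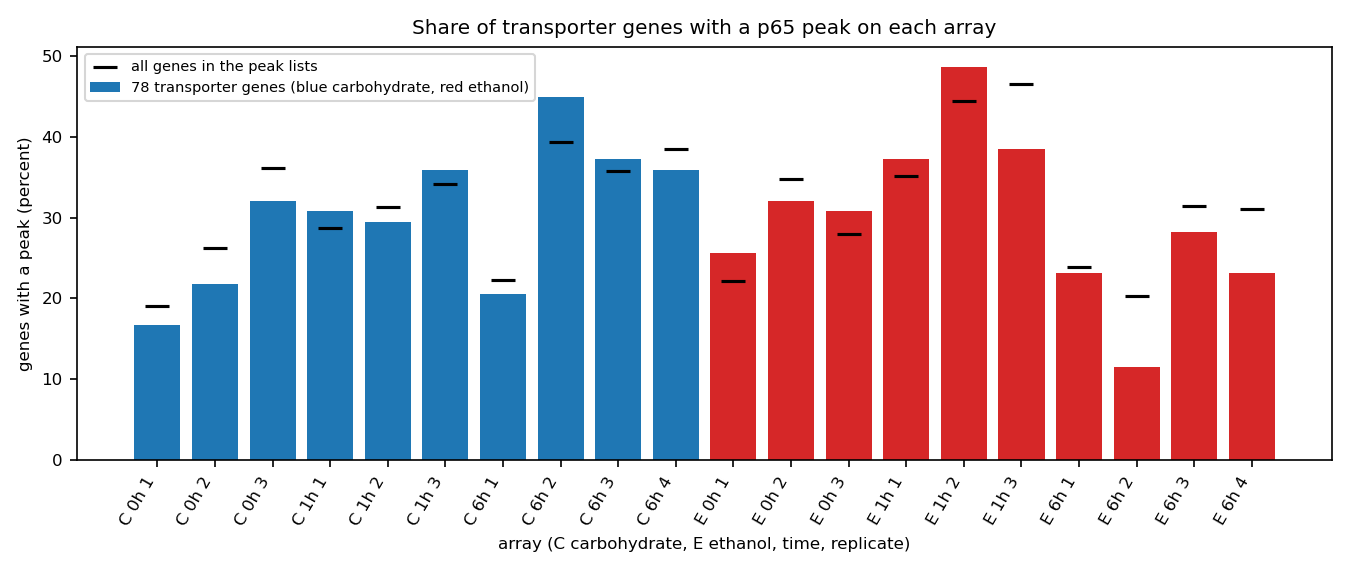
Percent of the 78 transporter genes with a p65 peak on each of the 20 arrays (bars, blue carbohydrate and red ethanol), with the percent of all 14368 named genes as black dashes. The bars range from 11.5% on ethanol 6h replicate 2 to 48.7% on ethanol 1h replicate 2 and rise and fall with the dashes.

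From 1h to 6h, transporter promoters were called as rises and as falls in each diet. Those called in both diets moved alike, as did nearly all promoters called in both. In the carbohydrate diet 16 of 80 rose and 8 fell, where 17.1% and 6.91% of all promoters did. In the ethanol diet 1 rose and 12 fell, where 7.73% and 16.1% of all did. That ethanol split depended on the scaling, with 10 rises and 10 falls after quantile normalization, 5 and 10 with arrays scaled to the same spread and 13 and 23 when whole regions were averaged. Without ethanol 1h replicate 3 it was 4 and 6. In carbohydrate whole regions gave 12 rises and 15 falls. The median change over the transporters was 0.05 in carbohydrate and −0.09 in ethanol, beside 0.07 and −0.08 over all promoters. Slco2b1, Abca2, Abcc8 and Abcg4 fell in both diets, and Slc10a2 rose in both. In all, 6 promoters were called in both diets, each in the same direction. Over all promoters 1437 were called in both diets, 1428 of them in the same direction. The 6 are 25% of the carbohydrate calls and 46.2% of the ethanol calls, beside 41.1% and 41.5% over all promoters. Across the 80 promoters the changes in the 2 diets correlated at 0.76, beside 0.716 over all 14540, a description in which the diets share slides.

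**Figure D2:**
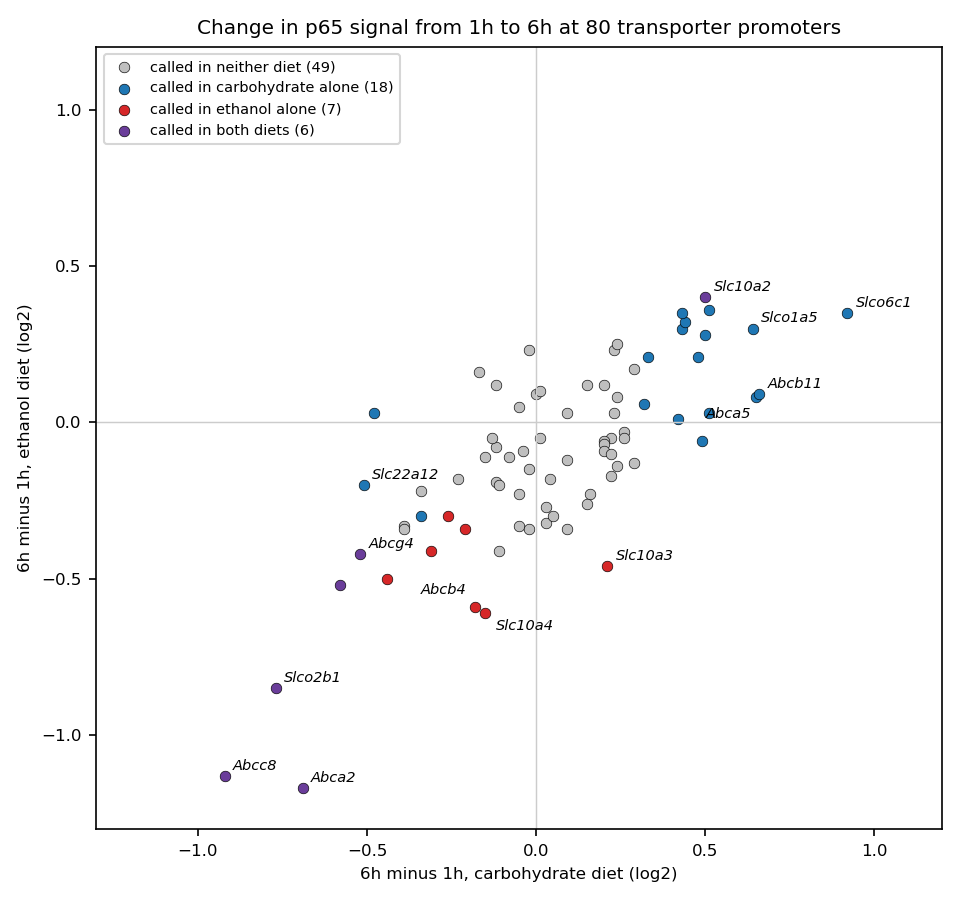
Change in p65 signal from 1h to 6h (log2) at each of 80 transporter promoters in the carbohydrate diet (x axis) and the ethanol diet (y axis), with colours for limma adjusted p under 0.05. Abca2, Abcc8 and Slco2b1 lie at the lower left, at −0.69, −0.92 and −0.77 in carbohydrate and −1.17, −1.13 and −0.85 in ethanol, and Slc10a2 at the upper right.

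Among the uptake carriers of the sinusoidal membrane, Slco2b1, which takes up sulfated steroids and drugs, changed the most. In the carbohydrate diet its signal was 0.83, 0.94 and 0.48 at 1h and −0.22, −0.01, 0.18 and −0.02 at 6h. In the ethanol diet it was 1.15, 0.64 and 0.36 at 1h and −0.35, −0.10, −0.07 and −0.03 at 6h. In both diets every 1h array lay above every 6h array. The changes were −0.77 (SE 0.19, adjusted p 0.00526) in carbohydrate and −0.85 (SE 0.19, adjusted p 0.00288) in ethanol by limma. On a shared slide, 6h minus 1h was −0.95 for carbohydrate replicates 2 and −0.71 for ethanol 6h replicate 1 and 1h replicate 3.

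Slco1a1, a carrier of male rat liver, fell in carbohydrate at its first start, from 0.52, 0.13 and −0.03 to −0.13, −0.41, −0.33 and −0.21 (−0.48, SE 0.18, adjusted p 0.0461). Its 1h and 6h arrays there did not overlap, and the highest 1h value was that of the second run. The second start showed no such fall, with means of 0.27 at carbohydrate 1h and 0.24 at 6h. Nor did the first start in ethanol, with means of −0.01 at 1h and 0.02 at 6h.

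The one uptake carrier that rose was Slco1a5. At carbohydrate 1h its values were −0.05, 0.05 and −0.09, and at 6h they were 0.67, 0.58, 0.60 and 0.58, a wide gap with a narrow spread (0.64, SE 0.12, adjusted p 0.000784). In ethanol the values were −0.08, 0.11 and 0.14 at 1h and 0.31, 0.16, 0.59 and 0.35 at 6h, which also did not overlap but were not called (0.30, SE 0.12, adjusted p 0.0752). Iapp is listed at the same promoter, and the Slco1a genes are close copies of each other, so probes could take up DNA of more than 1 gene.

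At the canalicular membrane, the floppase Abcb4, which supplies phospholipid to bile, showed its highest signal at ethanol 1h, with 0.62, 0.86 and 0.98. At ethanol 6h it was at 0.18, 0.24, 0.14 and 0.34, and at carbohydrate 1h at 0.41, 0.51 and 0.28. Every ethanol 1h array lay above all other 17 arrays. From 1h to 6h Abcb4 changed by −0.59 in ethanol (SE 0.13, adjusted p 0.00203), while the carbohydrate change of −0.18 was not called (SE 0.13, adjusted p 0.301).

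Abcb11 had the opposite order in the carbohydrate diet. Its values there were 0.13, 0.14 and −0.25 at 1h and 0.61, 0.89, 0.45 and 0.72 at 6h, a rise of 0.66 (SE 0.15, adjusted p 0.00332) with no overlap. In ethanol they were 0.30, 0.12 and 0.22 at 1h and 0.38, 0.01, 0.41 and 0.40 at 6h, and the groups overlapped. The window had its middle at −2518 bp from the listed start, on unplaced sequence of chromosome 3. The mean over the whole tiled region changed by −0.02 in carbohydrate instead.

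**Figure D3:**
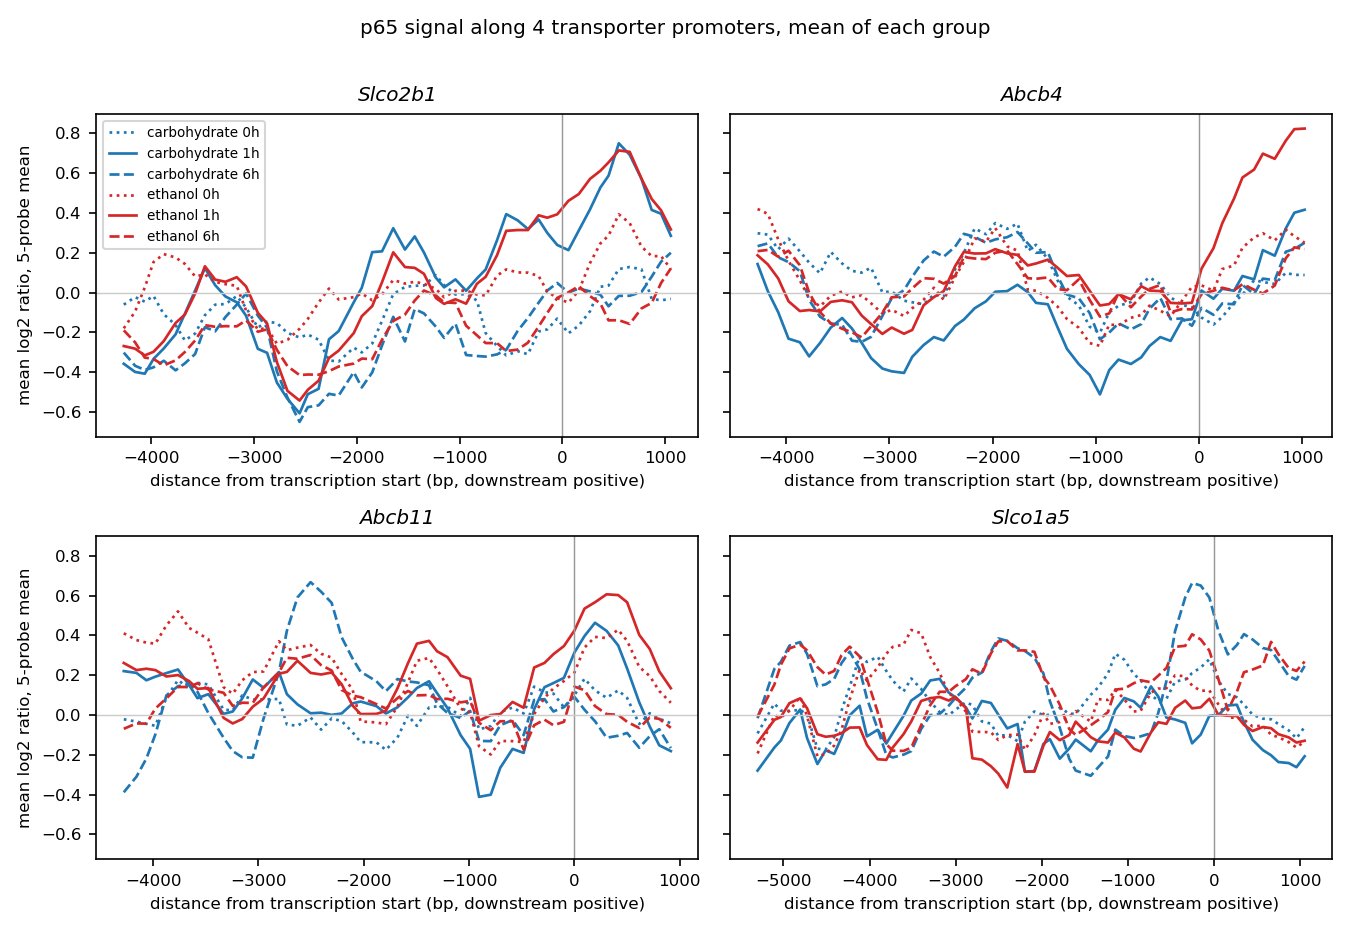
Mean log2 ratio of each group along 4 promoters against distance from the transcription start in bp, smoothed over 5 probes (blue carbohydrate, red ethanol, dotted 0h, solid 1h, dashed 6h). At Slco2b1 and Abcb4 the 1h lines peak downstream of the start. At Abcb11 the carbohydrate 6h line is highest around −2518 bp, and at Slco1a5 it peaks near the start.

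Falls were also found at genes of other membranes. Abca2, a sterol and lipid transporter of endosomes, lay at 0.81, 0.67 and 0.71 at carbohydrate 1h and −0.31, 0.50, −0.17 and 0.13 at 6h. In ethanol it was at 1.23, 1.00 and 1.05 at 1h and −0.24, −0.23, −0.23 and 0.40 at 6h. No 6h array reached a 1h array of the same diet, and the changes were −0.69 (SE 0.22, adjusted p 0.0227) and −1.17 (SE 0.22, adjusted p 0.000785). Fut7, a fucosyltransferase gene, is listed at the same promoter.

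Abcc8, the sulfonylurea receptor of potassium channels in insulin-secreting cells, read 1.36, 0.56 and 0.49 at carbohydrate 1h and −0.20, 0.11, −0.31 and −0.05 at 6h. Its ethanol values were 1.58, 0.65 and 0.80 at 1h and 0.02, 0.00, −0.40 and −0.12 at 6h. The highest array of each 1h group was that of the second run. The changes were −0.92 (SE 0.27, adjusted p 0.0143) and −1.13 (SE 0.27, adjusted p 0.00416), and with third-run arrays alone they were −0.61 (adjusted p 0.00115) and −0.85 (adjusted p 6.54e-06). Abcg4, a sterol exporter, changed by −0.52 and −0.42 (adjusted p 0.00439 and 0.0168).

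Slc10a2, the bile acid carrier of ileum and bile duct cells, rose from 1h to 6h in both diets. In carbohydrate it went from −0.13, 0.11 and 0.07 at 1h to 0.48, 0.34, 0.56 and 0.69 at 6h (0.50, SE 0.12, adjusted p 0.00469). In ethanol it went from 0.02, −0.01 and 0.14 to 0.35, 0.44, 0.56 and 0.48 (0.40, SE 0.12, adjusted p 0.0184). The lowest 6h array was above the highest 1h array in each diet. At 0h it read 0.17, 0.17 and 0.54 in carbohydrate and 0.14, 0.00 and 0.27 in ethanol. In carbohydrate every 0h array lay above every 1h array, so part of the rise there started from a level below 0h. The peaks of Slc10a2 come from the same ratios and are no separate support. In carbohydrate they were listed on 2 of 3 arrays at 0h, 0 of 3 at 1h and 4 of 4 at 6h. In ethanol they were listed on 1 of 3 at 0h, 0 of 3 at 1h and 3 of 4 at 6h.

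The other named rises in carbohydrate were at Slco6c1, a gene of the testis, by 0.92 (SE 0.19, adjusted p 0.00122), Abca5 by 0.65 (SE 0.15, adjusted p 0.00287) and Abcc10, an exporter of conjugates, by 0.51 (SE 0.14, adjusted p 0.00784). Slco6c1 had 1 array at −0.86, carbohydrate 1h replicate 1 of the second run, and its rise without that array was 0.58. Slc10a4, a vesicle protein of nerve cells, fell in ethanol from 0.30, 0.86 and 0.82 to 0.04, 0.05, 0.08 and 0.03 (−0.61, SE 0.14, adjusted p 0.00296). Its 4 ethanol 6h arrays lay closer together than in any other group.

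With the 11 third-run arrays alone, 22 of 80 transporter promoters were called from 1h to 6h in carbohydrate and 22 in ethanol, where 24.2% and 35.3% of all promoters were. All 22 carbohydrate calls and 12 of the ethanol calls were also called on all arrays. With the array run as a term, 20 and 17 were called, and 20 and 12 of them were shared. Without carbohydrate 1h replicate 1 the carbohydrate count was 11, and without ethanol 6h replicate 2 or replicate 3 the ethanol count was 8.

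**Figure D4:**
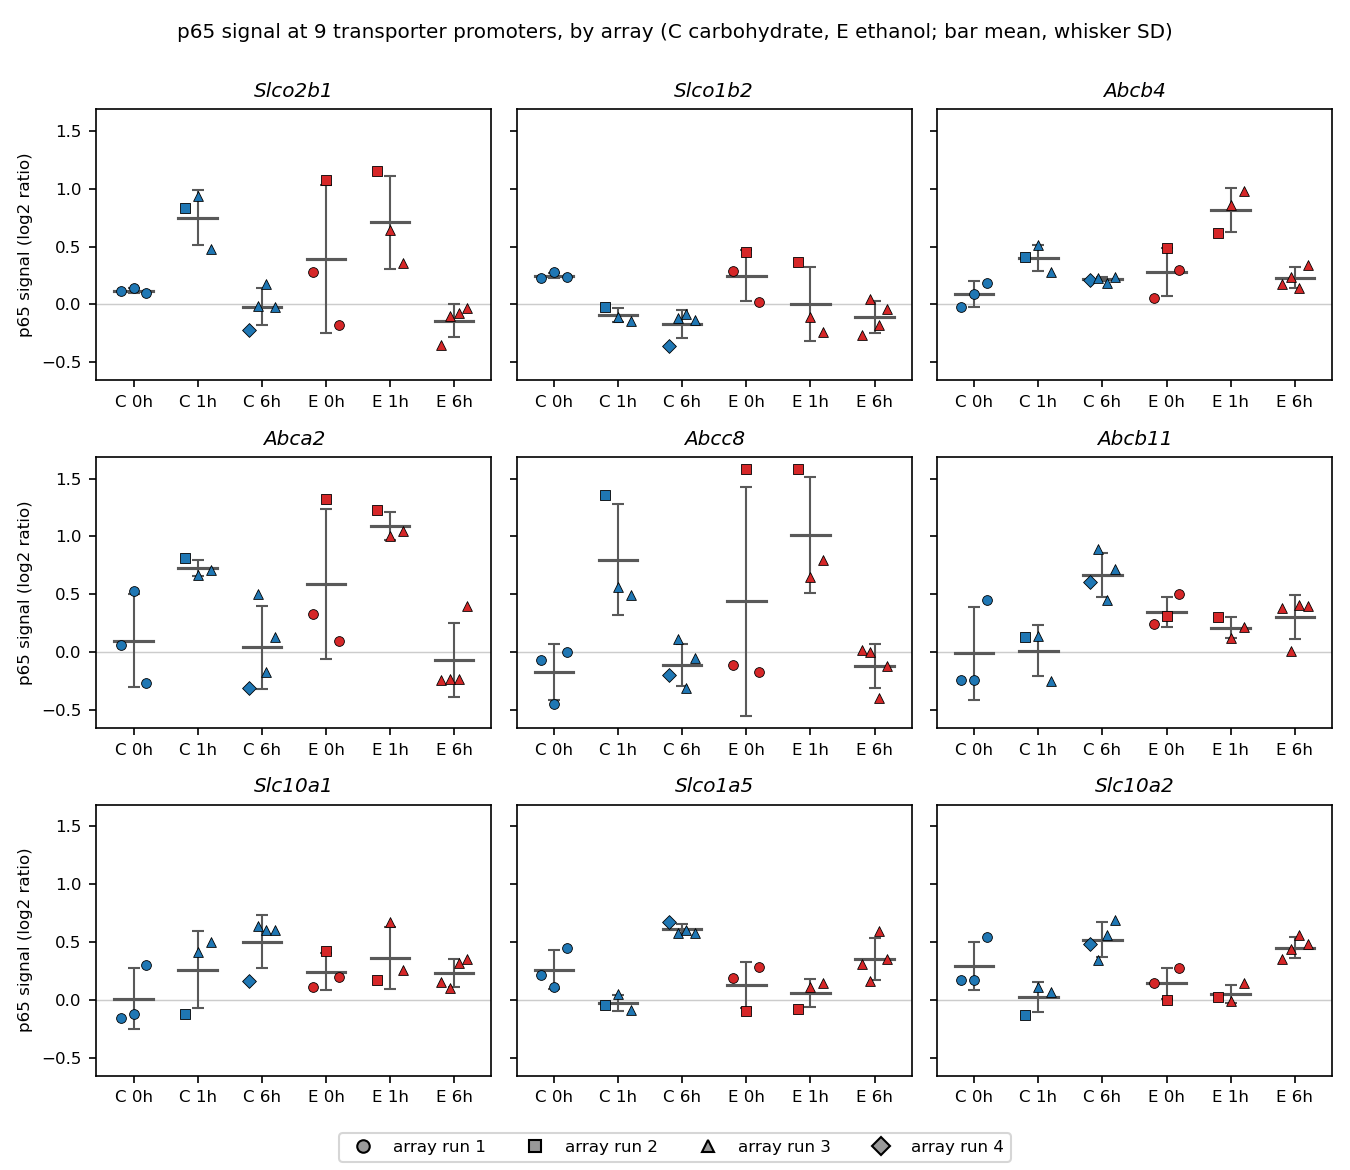
p65 signal (log2 ratio) on each array at 9 transporter promoters, by diet and time, with the group mean (bar) and SD (whisker) and the array run as the marker shape. Slco2b1, Abca2 and Abcc8 are high on all 1h arrays and on the 1 ethanol 0h array of the second run, and Slco1a5 and Slc10a2 are low at 1h and high at 6h.

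Compared with 0h in the carbohydrate diet, 6 promoters rose at 1h and 0 fell, where 8.64% and 2.46% of all promoters did. With the region mean 9 rose and 16 fell, and quantile normalization and equal spread gave 2 falls each beside 6 and 4 rises. The 6 were Abcc8 (0.98), Slco2b1 (0.63), Slc22a12, the urate carrier of kidney (0.57), Abcg4 (0.44), Abcf3 (0.42) and Slco5a1 (0.38). At 0h Slco2b1 had been at 0.12, 0.14 and 0.10 and Slc22a12 at 0.19, −0.11 and 0.22. At 1h Slc22a12 read 0.70, 0.62 and 0.69. Abcc8, Slco2b1, Slc22a12 and Abcg4 were called both in this rise and in the fall to 6h. With the array run as a term 0 of the 6 were called, and Abcc8, Slco2b1 and Abcf3 turned sign, to −0.18, −0.14 and −0.05. In that fit ethanol 0h replicate 2, which read like the 1h arrays of its slide, alone links 0h to the runs of later arrays. Without carbohydrate 0h replicate 2 the count was 0. It was 2 and 3 without 0h replicates 1 and 3, and 1 without 1h replicate 1 or 2.

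By 6h in the carbohydrate diet, 21 promoters were above 0h and 1 below, where 18.6% and 2.02% of all promoters were. Abcb11 rose from −0.24, −0.24 and 0.45 to 0.61, 0.89, 0.45 and 0.72 (0.68, SE 0.15, adjusted p 0.00348), with 0h replicate 3 and 6h replicate 3 equal after rounding. Slco6b1 of the testis (0.57), Slc22a2, the organic cation carrier of kidney (0.54), Slc22a17 (0.53) and Abca5 (0.50) followed. Slc10a1, the main bile acid carrier of hepatocytes, rose by 0.49 (SE 0.16, adjusted p 0.026) from −0.16, −0.12 and 0.30 to 0.16, 0.64, 0.60 and 0.60, with overlap at the 6h array of the fourth run. Abcg2, an exporter of drugs and urate, rose by 0.40 (adjusted p 0.0361).

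The 1 fall was at Slco1b2, the bile acid and drug carrier of the hepatocyte. It went from 0.23, 0.28 and 0.24 at 0h to −0.36, −0.12, −0.08 and −0.13 at 6h (−0.43, SE 0.12, adjusted p 0.0162). Its neighbours in the same cluster on chromosome 4, Slco1c1, Slco1a6 and Slco1a5, were among the 21 rises. The median change of all promoters was 0.15 in this comparison, beside 0.13 over the transporters. With the mean of the tiled region 3 rose and 3 fell. With the array run as a term 0 of the 22 were called, and there too ethanol 0h replicate 2 alone links 0h to the runs of later arrays. The 0h and 6h arrays of this diet share no run. Without carbohydrate 0h replicate 2 or 1 the counts were 1 and 9.

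In the ethanol diet 0 transporter promoters were called at 1h or at 6h against 0h, where 0.248% and 0.0275% of all promoters rose and fell at 1h and 0.371% and 0.626% at 6h. At an unadjusted p under 0.05, 7 and 22 of the 80 differed, beside 2363 and 3021 of all 14540. Abcb4 came closest at 1h, at 0.54 above 0h (SE 0.14, adjusted p 0.0638), before the Abcg5 and Abcg8 promoter at 0.35 (SE 0.12, adjusted p 0.158). Ethanol 0h replicate 2 stood with the 1h arrays of its slide: Abcc8 was at 1.58 on it and −0.11 and −0.17 on the other 0h arrays, Slco2b1 at 1.08 against 0.28 and −0.18, and Abca2 at 1.32 against 0.33 and 0.10. Between this array and ethanol 1h replicate 1, of the same animal number and slide, Abcc8 differed by 0.00 and Slco2b1 by 0.07. Between the carbohydrate arrays of 1 animal number at 1h and 0h, which lay in different runs, Abcc8 differed by 1.80 and Slco2b1 by 0.70.

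Without ethanol 0h replicate 2, the ethanol 0h arrays share no run with the 1h or 6h arrays. Time and run then cannot be told apart. In that subset 7 promoters rose at 1h, where 7.4% of all promoters did. They were Abcc8 (1.15), Abca2 (0.88), Slco2b1 (0.66), Abcb4 (0.64), Slco5a1 (0.46), Abcf3 (0.44) and the shared promoter of Abcg5 and Abcg8, which export sterols (0.42). When ethanol 1h replicate 1 was left out instead, 4 rose and 2 fell. At 6h 0 were called without ethanol 0h replicate 2, and 7 without 0h replicate 3, of which 2 rose and 5 fell. At 6h Abcd4 (−0.52, adjusted p 0.0697) and Slco1c1 (0.45, adjusted p 0.074) had the smallest p on all arrays.

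Between the diets at the same time, 0 transporter promoters were called at 0h, 1h or 6h on all arrays, and 0% of all promoters were. At an unadjusted p under 0.05, 4, 9 and 12 of the 80 differed, beside 1106, 1189 and 1590 of all 14540. Slc22a12 at 1h was at 0.70, 0.62 and 0.69 in carbohydrate and 0.23, 0.40 and 0.00 in ethanol, which did not overlap (−0.46, SE 0.13, adjusted p 0.429). Abcb4 at 1h was 0.42 higher in ethanol (SE 0.14, adjusted p 0.433), also with no overlap. At 6h Slc22a14 and Slco4c1, a carrier of the kidney, both changed by −0.35 from carbohydrate to ethanol, with no overlap (SE 0.12, adjusted p 0.429). At 0h Abcb11 and Abcb9 were 0.36 and 0.41 higher in ethanol, with overlap (adjusted p 0.646 and 0.648). The Abcb9 values in ethanol were 0.08, 0.89 and 0.06, so its difference came mostly from ethanol 0h replicate 2. Without that array 0 transporters were called between the diets at 0h as well.

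The difference between the diets in the change over time was also called at 0 transporters, and at 0% of all promoters, for 1h against 0h, 6h against 0h and 6h against 1h. Both comparisons with 0h also gave 0 transporter calls without ethanol 0h replicate 2. At an unadjusted p under 0.05, 2, 12 and 12 of the 80 differed on all arrays, beside 1371, 1954 and 2044 of all 14540. For 1h against 0h the smallest p were those of Slc22a12 (−0.51, adjusted p 0.448) and Slc10a3, an orphan carrier (0.55, adjusted p 0.455). For 6h against 0h they were those of Abcb11 (−0.73, SE 0.22, adjusted p 0.293) and Slc22a14 (−0.46, adjusted p 0.31), and for 6h against 1h those of Slc10a3 (−0.68, SE 0.20, adjusted p 0.23) and Abca5 (−0.57, adjusted p 0.255). In the third run alone, which holds 2 arrays of each diet at 1h, 3 at carbohydrate 6h and 4 at ethanol 6h, 8 transporters differed in the change from 1h to 6h, where 11.1% of all promoters did. Among them were Abcb11 (−0.60, adjusted p 0.0492) and Abca5 (−0.79, adjusted p 0.0176), where the change was lower in ethanol. Abcb4 (0.53), the second start of Abcc4 (0.47) and Slc10a3 (0.53) were higher and Abcc9 (−0.51) lower in ethanol at 1h, which makes 4 where 2.46% of all were called. At 6h Slc22a15 was lower (−0.42), 1 call where 1.8% of all were.

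By family, calls from 1h to 6h are set beside the 24.1% of all promoters called in carbohydrate and 23.8% in ethanol. In carbohydrate 6 of 15 Slco promoters rose and 2 fell. In Slc22a 2 rose and 2 fell of 16, in Abcc 2 rose and 1 fell of 11, in Slc10a 2 rose of 8, in Abca 2 rose and 1 fell of 8, in Abcb 1 rose and 1 fell of 9, in Abcg 1 rose and 1 fell of 7, and in Abcd and in Abce with Abcf 0 of 2 and 0 of 4 were called. In ethanol 2 of 15 Slco promoters fell, as did 2 of 16 Slc22a, 2 of 8 Slc10a, 2 of 4 Abce and Abcf and 1 each in Abca, Abcb, Abcc and Abcg. The family medians lay between −0.02 and 0.22 in carbohydrate and between −0.22 and 0.03 in ethanol.

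**Figure D5:**
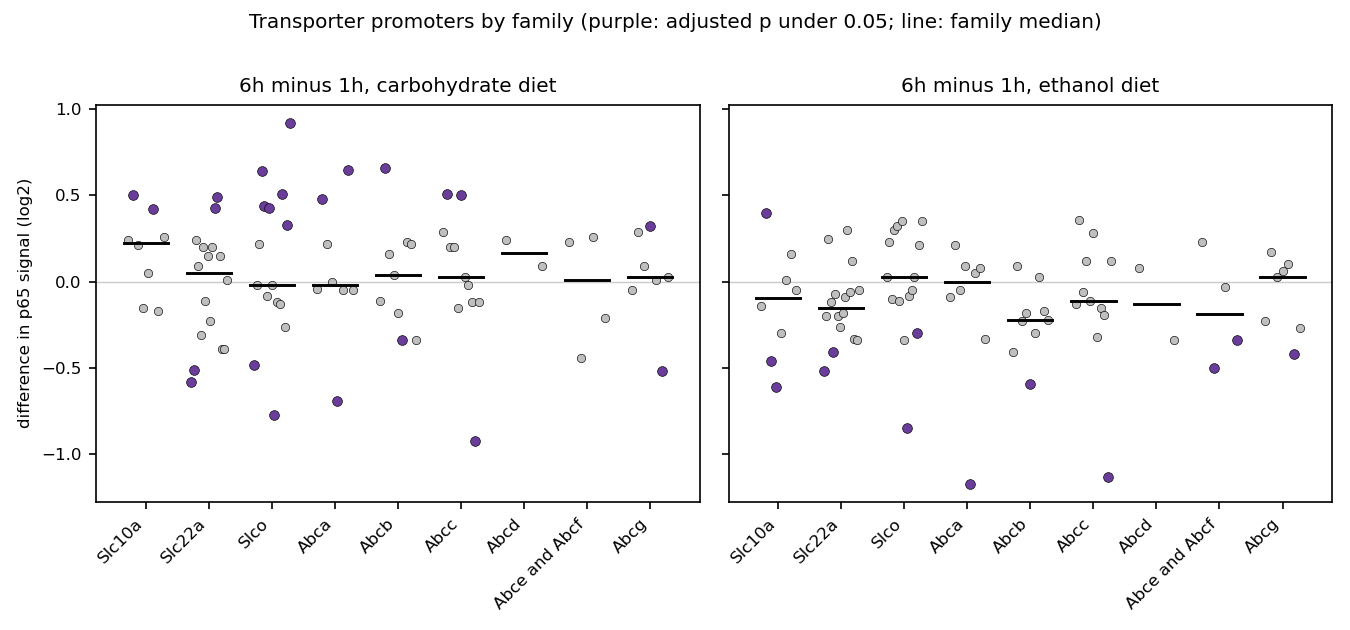
Change in p65 signal from 1h to 6h (log2) at each promoter, by family, in the carbohydrate diet (left) and the ethanol diet (right), with calls in purple and the family median as a line. In Slco 6 carbohydrate points are called above 0 and 2 below, and in ethanol 12 of 13 purple points over all families lie below 0, a split that was 10 above and 10 below after quantile normalization.

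The other well-known transporters of liver are given here by their range and their change. Abcc2, the exporter of bilirubin conjugates, ranged from −0.08 to 0.76 over the 20 arrays, Slc22a7, a carrier of organic anions, from −0.19 to 0.97, and Slco1a4, a carrier of organic anions such as digoxin, from −0.14 to 0.53. Abcb1a, a drug exporter, ranged from 0.05 to 0.65, Abca1, which loads cholesterol onto apolipoprotein, from 0.01 to 0.59, and Abcc3, an exporter to blood, from −0.37 to 0.41. From 1h to 6h, Slc22a7 changed by −0.39 in carbohydrate and −0.34 in ethanol (SE 0.20, adjusted p 0.16 and 0.212), with overlap. Abcc2 changed by 0.20 and 0.12 (SE 0.16, adjusted p 0.363 and 0.598), Slco1a4 by 0.22 and −0.10 (SE 0.13, adjusted p 0.206 and 0.604) and Abcb1a by 0.16 and −0.23 (SE 0.13, adjusted p 0.382 and 0.206). These 4 and Abca1 and Abcc3 were called in none of the 12 contrasts on all 20 arrays. Abcg2 changed by 0.29 and 0.17 (SE 0.14, adjusted p 0.117 and 0.38), and the Abcg5 and Abcg8 promoter by 0.03 and −0.27 (SE 0.11, adjusted p 0.891 and 0.0827). Abca1 changed by −0.04 and −0.09 and Abcc3 by −0.15 and −0.11 (SE 0.13). Abcc4, another exporter to blood, rose at its first start from 1h to 6h in carbohydrate (0.50, adjusted p 0.00687), and its second start was not called.

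Of 27 genes that control bile acid and drug handling or act beside these transporters, 25 had a promoter here. In carbohydrate 7 of these rose at 1h against 0h and 0 fell, where 8.64% and 2.46% of all promoters did, among them Nr0b2, the bile acid induced repressor (0.57, adjusted p 0.0265), Ppara, the fatty acid receptor (0.57), Hnf4a, a hepatocyte factor (0.53, adjusted p 0.0478), and Slc27a5, a bile acid ligase (0.55). The 0h and 1h arrays of this diet share no run, and how these 7 calls vary with the run term or with single arrays is not given here. From 1h to 6h 1 rose and 2 fell in carbohydrate, and 0 rose and 8 fell in ethanol, beside 17.1% and 6.91% of all promoters in carbohydrate and 7.73% and 16.1% in ethanol. In ethanol Rxra, the partner of many of these receptors, changed by −0.71 (SE 0.14, adjusted p 0.00101). Ppara and Keap1, which holds back the stress factor Nfe2l2, fell in both diets. At 6h against 0h in carbohydrate 3 rose and 1 fell, where 18.6% and 2.02% of all did. In ethanol against 0h, and between diets, 0 of 25 were called.

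The place of the window and the base composition were set beside the calls, as a description. Over all 80, 25 windows had their middle downstream of the start. Of the 12 falls from 1h to 6h in ethanol 7 were downstream, as were 6 of 16 rises and 3 of 8 falls from 1h to 6h in carbohydrate, and 4 of 21 rises at 6h against 0h in carbohydrate. The 8 ethanol falls with a sequence had a median of 62.4% G and C, beside 57.7% for the 57 promoters not called there. In carbohydrate the 14 rises from 1h to 6h had 48.5% (from 36.3% to 75.3%), the 6 falls 58% and the 46 not called 59.2%. Across promoters, the G and C content correlated with the change from 1h to 6h at −0.34 over 66 transporters and −0.47 over 10725 promoters in ethanol, and at −0.169 and −0.364 in carbohydrate. These points share arrays and probes, and what part base composition had in the values was not tested. Of 568 transporter peaks 21.8% lay within 500 bp of the start and 78% upstream of it, beside 19% and 72.7% of 116262 peaks in all.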

How the data were processed

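The authors deposited a table of log2 ratios covering 713735 probes on each array. Per the channel labels Cy5 held p65-precipitated and Cy3 input DNA, while the labelling text names IgG in Cy3. The authors' peak lists gave a score and an FDR (a p-value type measure) per peak, up to 0.19961, per the file headers. Peak caller, genome build and normalization: not given in the sources used here. Coordinates from the files are not set beside GRCr8. Each array was centred on its median and turned by −1. Probes were joined into regions ending at gaps over 1000 bp, and of 14723 regions 14540 held a 500 bp window with at least 4 probes. The window of highest mean over all arrays was fitted with limma 3.58.1 (R 4.3.3; 1 fit of 6 group means, eBayes with trend, two-sided, Benjamini-Hochberg). Names followed transcript accessions where RefSeq held them (73 of 78 genes, 2 renamed). In each comparison up to 5 called rises and 5 called falls were named, or the 2 smallest p where none was called, with the 5 genes with most peaks and the best-known liver transporters; 1 promoter that the rule names is not reported here, though counts over promoters include it. Members, lists and rules were chosen with earlier results of these data known. Alternatives were the array run, slide, animal number or replicate number in the model, the region mean, the deposited direction, other scalings, subsets of arrays and stricter peaks. The fit was tested on simulated data. The number of arrays limits the precision: the median SE was 0.142 log2 for 3 against 3 arrays and 0.123 for 4 against 4. Python 3.11.15 with pandas 2.3.3 and matplotlib 3.10.9 was used.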

Additional observations from a re-analysis of the deposited data

Results flagged for a closer look

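Within the groups of 4 arrays at 6h, 6 of 76 sets of values at 38 named promoters had an array whose gap to its neighbour took up most of the range (Dixon's test). Chance gives about 1 in 20. Ethanol 6h replicate 4 was high at Abca2, with 0.40 against −0.23 next to it, and at Slc22a7, with 0.16 against −0.11. Ethanol 6h replicate 2 was low at Abcb11, with 0.01 against 0.38. The carbohydrate 6h array of the fourth run, replicate 1, was low at Slc10a1 (0.16 against 0.60) and Abcc3 (−0.37 against 0.11). Carbohydrate 6h replicate 4 was high at Abcg2, with 0.70 against 0.41.

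In the third run alone, limma's test of the diet difference in the change from 1h to 6h called 8 of 80 transporter promoters, and 0 on all arrays. Of all promoters 11.1% were called in that subset, so the count is not particular to transporters. At 1h the subset holds 2 arrays of each diet. The change was lower in ethanol by −0.79 (SE 0.18, adjusted p 0.00725) at Slc10a3, by −0.74 (SE 0.17, adjusted p 0.00805) at Slc10a4, by −0.79 (SE 0.21) at Abca5, by −0.60 (SE 0.20) at Abcb11, by −0.60 (SE 0.19) at Abcb1a, by −0.54 (SE 0.17) at the second start of Abcc4 and by −0.53 (SE 0.17) at Slc22a25. It was higher in ethanol by 0.71 (SE 0.18, adjusted p 0.0129) at the first start of Slco1a1.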

How the results depend on the processing

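Counts of called transporter promoters follow, by setting. Except for the third run alone, whose shares are given above, no share of all promoters is set beside them. The same holds for the counts with a replicate block and with single arrays left out, so these counts tell nothing particular to transporters. Against 0h, the run term rests on ethanol 0h replicate 2 alone to link the runs. With the array run as a term the counts were 0 for carbohydrate at 1h and at 6h against 0h and 4 for ethanol at 6h against 0h. In the third run alone they were 22 for 6h against 1h in ethanol, 4 and 1 between diets at 1h and 6h, and 8 for the diet difference in 6h against 1h. With the mean of the tiled region 1h against 0h gave 25 in carbohydrate and 1 in ethanol, and the counts were 6 for 6h against 0h in carbohydrate and 36 for 6h against 1h in ethanol. In the deposited direction, with the window chosen anew, carbohydrate gave 2 at 6h against 0h and 2 at 6h against 1h, while ethanol gave 0 at 6h against 1h. For 6h against 0h in ethanol they were 2 with arrays scaled to the same spread and 4 with quantile normalization, which gave 20 for 6h against 1h in ethanol. The cause of these shifts was not tested.

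Replicate numbers did not pair the arrays: the mean correlation of deviations was 0.0666 for equal and −0.0263 for different numbers. With the number as a replicate block 1 and 3 promoters were called at 1h and 6h against 0h in ethanol, beside 8 and 21 in carbohydrate. From 1h to 6h, 23 were called in carbohydrate and 15 in ethanol.

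Leaving out 1 array at a time, the counts ranged from 0 to 4 and from 1 to 29 for 1h and 6h against 0h in carbohydrate, from 0 to 7 for both in ethanol, and, for 6h against 1h, from 11 to 23 in carbohydrate and from 8 to 13 in ethanol. They ranged from 0 to 1 between diets at 1h (1 without ethanol 1h replicate 1), from 0 to 1 for the diet difference in 6h against 0h (1 without carbohydrate 0h replicate 3) and from 0 to 3 for that in 6h against 1h (3 without ethanol 1h replicate 1). No called difference of a named promoter changed sign.

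Changes of sign came from 3 settings, 1 of them the run term, where ethanol 0h replicate 2 alone links 0h to the runs of later arrays. With the run as a term, 1h against 0h in carbohydrate was −0.18 at Abcc8, −0.14 at Slco2b1 and −0.05 at Abcf3. With the region mean, it was 0.00 at Abcg4, 6h against 0h was −0.06 at Slco6b1 and −0.08 at Abca5, and 6h against 1h was −0.02 at Abcb11. In the deposited direction a change in the same window turns sign by construction. With windows chosen anew the values were −0.59 at Abcf3 (1h against 0h, carbohydrate), 0.18 at Slco1b2 (6h against 0h), and for 6h against 1h −0.22 at Slco6c1, −0.27 at Abcb11, −0.08 at Abca5, 0.08 at Abcc8, 0.04 at Slco2b1 and 0.21 at Abcg4 in carbohydrate, and −0.26 at Slc10a2, 0.20 at Abcc8, 0.02 at Slc10a4 and 0.06 at Abcb4 in ethanol.

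With peaks of FDR under 0.05, 1, 10 and 11 transporters were bound at 0h, 1h and 6h in carbohydrate and 3, 14 and 9 in ethanol. With at least 3 arrays required, 1 and 11 were bound at carbohydrate 0h and 1h, and 4, 6 and 11 at ethanol 0h, 1h and 6h. The carbohydrate 6h count under that rule is not given here. Groups at 6h hold 4 arrays and the others 3, so the rule is easier to meet at 6h. In ethanol the order of 1h and 6h was opposite to that with at least 2 arrays, which gave 32 and 22. No share of all named genes is set beside these stricter counts, which therefore tell nothing particular to transporters. Of equal spread, quantile normalization and the region mean, the region mean alone moved the median change of all promoters by over 0.1: to −0.02 from 0.15 for 6h against 0h in carbohydrate, to 0.00 from −0.11 between diets at 6h, and to 0.00 from −0.17 and −0.02 from −0.14 for the diet difference in 6h against 0h and against 1h.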

Other observations

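Near its start Abcb11 had a second place of signal, chosen after its values were seen and given with no test. In the 500 bp from 50 to 550 bp downstream of the start, the mean was 0.42 ± 0.08 (SD, n = 3) at carbohydrate 1h and 0.61 ± 0.25 (SD, n = 3) at ethanol 1h. At 6h it was −0.11 ± 0.19 (SD, n = 4) and 0.00 ± 0.06 (SD, n = 4). All 6 arrays at 1h lay between 0.36 and 0.90, and the highest of the 8 arrays at 6h was at 0.14. The 0h arrays read 0.02, 0.25 and 0.00 in carbohydrate and 0.35, 0.83 and −0.02 in ethanol, the 0.83 on ethanol 0h replicate 2. The upstream place of the same promoter, used in the comparisons, was highest at carbohydrate 6h instead.

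The Slco genes of 1 cluster on chromosome 4 did not move together. In the coordinates of the files, Slco1c1, Slco1b2, Slco1a1, Slco1a6 and Slco1a5 start between 178959892 and 179851288. From 0h to 6h in carbohydrate Slco1c1, Slco1a6 and Slco1a5 rose by 0.47, 0.43 and 0.35, and Slco1b2, which lies between them, fell by 0.43. Neither start of Slco1a1 was called. On chromosome 9, Slco4c1, Slco6b1 and Slco6c1 start between 96092537 and 96465039 and rose by 0.51, 0.33 and 0.92 from 1h to 6h in carbohydrate.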
